A study of Mus musculus with 12 samples.

Results

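Elastic fibres give skin its recoil, and 5 genes of their assembly were followed here across control and ageing-model mouse skin. Eln, Fbn1, Fbn2, Loxl1 and Mfap5 were chosen by their symbols among 7902 genes in the deposited tables, and all 5 passed the filter on low counts with 7638 genes in all. The measurements are bulk RNA-seq of 12 skin samples. The 4 M+NSPCC1 samples came from an ageing model of D-galactose combined with ultraviolet A and B light, with the grape seed extract NSPCC1 added. The 4 Model samples had the same ageing model without the extract, and the 4 Ctrl samples were control skin. Excess of the sugar D-galactose is used in animals to bring on oxidative stress and glycation. All samples are labelled as mouse skin, and the sources used here do not give strain, sex, age, body site, dose or treatment time. Whether the libraries of a group stem from different animals is not said either, so every p-value rests on a library-to-library spread that may be partly technical.

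An elastic fibre has a core of cross-linked elastin laid down on a scaffold of microfibrils. Microfibrils are built from fibrillins, large extracellular proteins of which fibrillin-1 is the main form of adult tissue and fibrillin-2 is made mostly during development. Microfibril-associated glycoproteins bind the fibrillins, and lysyl oxidases link elastin monomers into an insoluble polymer. In skin these proteins come mainly from dermal fibroblasts, and vessel walls make them too.

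Of the 5 elastic fibre genes 4 fell and 1 rose against Ctrl. Elastin, the adult fibrillin gene Fbn1, Mfap5 and the cross-linking enzyme gene Loxl1 fell in Model skin by 2.87-fold to 4.55-fold against Ctrl, while the developmental fibrillin gene Fbn2 rose 3.82-fold. With the extract the same 4 genes were 2.59-fold to 4.88-fold lower than in Ctrl and Fbn2 was 5.89-fold higher. No member passed the test between M+NSPCC1 and Model. A gene passed where edgeR's quasi-likelihood test gave a Benjamini-Hochberg adjusted p under 0.05 over all 7638 genes. In Model against Ctrl 41.4% of all tested genes passed as lower and 49.1% as higher. The corresponding shares were 43.1% and 50.1% in M+NSPCC1 against Ctrl. Either direction passed for 84% and 87.2% by DESeq2. Values of Model lay wholly below Ctrl in 39.8% and wholly above it in 43.2% of genes, and those of M+NSPCC1 in 42.5% and 47.4%. Passing, or not overlapping with Ctrl, was thus the rule for genes of these tables and does not set the members apart. In bulk tissue, fewer cells of a type and less RNA per cell cannot be told apart.

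**Figure D1:**
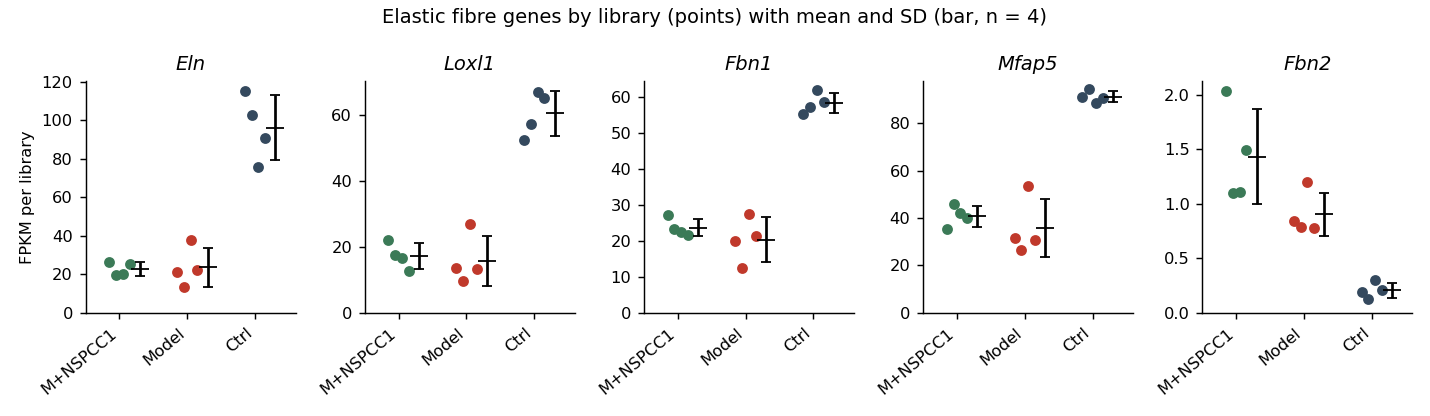
FPKM of each elastic fibre gene in each library (points) with the group mean and SD (black bar, n = 4) for M+NSPCC1, Model and Ctrl skin; each panel has its own linear axis from 0. Eln, Loxl1, Fbn1 and Mfap5 lie lower in every M+NSPCC1 and Model library than in any Ctrl library, and Fbn2 lies higher.

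Eln encodes elastin, the rubber-like core protein (chromosome 5, 134702595 to 134747368 in GRCm38.p6). Levels are given as FPKM, fragments scaled to transcript length and whole-library depth, with the rows of a gene summed. Eln had 26.5, 19.5, 20.2 and 25.2 FPKM in the 4 M+NSPCC1 libraries, 21.5, 13.3, 37.7 and 22.4 FPKM in the Model libraries, and 115, 103, 75.8 and 90.9 FPKM in the Ctrl libraries. The highest Model library, Model 3, stayed well under the lowest Ctrl library, so neither M+NSPCC1 nor Model overlapped with Ctrl. The log2 fold change of Model over Ctrl was -2.19 (SE 0.28; adjusted p = 2.1e-05, edgeR). For M+NSPCC1 over Ctrl it was -2.29 (SE 0.28; adjusted p = 1.68e-05, edgeR). Within the Model group Eln differed 2.94-fold between its highest and lowest library by CPM, the count scaled to the table's total, against 1.37-fold in M+NSPCC1 and 1.502-fold in Ctrl.

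Loxl1 encodes a lysyl oxidase-like enzyme that cross-links elastin and is required to maintain elastic fibres in adult mice (chromosome 9, 58287723 to 58313212). It had 22.1, 17.5, 16.7 and 12.6 FPKM in M+NSPCC1, 13.5, 9.64, 26.8 and 13.3 FPKM in Model and 52.2, 57.2, 66.9 and 65.1 FPKM in Ctrl libraries. Model 3 was again the highest of its group and Model 2 the lowest, with no overlap between either group and Ctrl. Log2 fold changes were -2.10 in Model over Ctrl (SE 0.30; adjusted p = 4.64e-05) and -2.02 in M+NSPCC1 over Ctrl (SE 0.29; adjusted p = 6.23e-05) in edgeR. The ratio of Loxl1 to Eln FPKM averaged 0.764 ± 0.179 in M+NSPCC1, 0.664 ± 0.0641 in Model and 0.651 ± 0.188 in Ctrl skin (mean ± SD, n = 4 each). Elastin and this cross-linker thus had a ratio whose ranges overlapped among all 3 groups.

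Fbn1 encodes fibrillin-1, the main structural protein of adult microfibrils (chromosome 2, 125300594 to 125506485). It had 27.2, 23.2, 22.5 and 21.7 FPKM in M+NSPCC1, 19.96, 12.6, 27.5 and 21.4 FPKM in Model and 55.2, 57.2, 61.9 and 58.6 FPKM in Ctrl libraries. The Ctrl libraries lay close together, with a coefficient of variation of 5.24% by CPM, against 11.2% in M+NSPCC1 and 31.9% in Model. Its log2 fold change was -1.69 in Model over Ctrl (SE 0.20; adjusted p = 1.06e-05) and -1.52 in M+NSPCC1 over Ctrl (SE 0.19; adjusted p = 2.47e-05) in edgeR. Fbn1 is the only 1 of the 5 members with an entry in the RefSeq promoter table used here (GRCm38.p6). Its sequence is shown because Fbn1 anchors the comparison with Fbn2. The 203 bases before every RefSeq start of Fbn1 (another annotation has a start further upstream) lie at chr2:125506486-125506688 on the minus strand, and capitals mark the motif GGGCGG (the GC box).

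Fbn1 promoter: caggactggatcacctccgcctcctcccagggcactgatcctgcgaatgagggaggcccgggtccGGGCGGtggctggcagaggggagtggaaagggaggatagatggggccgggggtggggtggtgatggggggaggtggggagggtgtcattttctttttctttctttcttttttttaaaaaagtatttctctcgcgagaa

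Searched on both strands, this window held 1 match of GGGCGG and 0 of TATAAA (the TATA box). The 2 motifs do not overlap in letters. Of 27025 genes in the promoter table, 25.2% had a GGGCGG match and 9.63% a TATAAA match in the same 203 positions. A match is only a match of letters.

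Mfap5 encodes microfibril-associated glycoprotein 2, which binds fibrillins along the microfibril (chromosome 6, 122513584 to 122529290). It had 35.4, 46.1, 42.0 and 39.9 FPKM in M+NSPCC1, 31.7, 26.4, 53.7 and 30.8 FPKM in Model and 91.2, 94.3, 88.6 and 90.5 FPKM in Ctrl libraries. Ctrl libraries were nearly equal, with a coefficient of variation of 2.47% by CPM, and Model 3 lay far above the other Model libraries. Mfap5 had the smallest fall of the 4 genes, with a log2 fold change of -1.52 in Model over Ctrl (SE 0.20; adjusted p = 2.48e-05) and -1.37 in M+NSPCC1 over Ctrl (SE 0.20; adjusted p = 5.52e-05) in edgeR. Whether its fall differed in size from those of the other 3 genes was not tested. Mfap5 stood to Fbn1 in an FPKM ratio of 1.75 ± 0.304 in M+NSPCC1, 1.77 ± 0.308 in Model and 1.57 ± 0.105 in Ctrl skin (mean ± SD, n = 4 each), with overlapping ranges.

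Fbn2 encodes fibrillin-2, the fibrillin of developing microfibrils (chromosome 18, 58008623 to 58210572). It was the 1 member that rose. Fbn2 had 2.03, 1.10, 1.11 and 1.49 FPKM in M+NSPCC1, 0.84, 0.79, 1.20 and 0.78 FPKM in Model and 0.19, 0.13, 0.30 and 0.21 FPKM in Ctrl libraries. Both ageing-model groups lay wholly above Ctrl, while M+NSPCC1 and Model overlapped through Model 3. Estimated counts ran from 201 to 376 in M+NSPCC1, from 141 to 216 in Model and from 23 to 55.5 in Ctrl libraries, so the Ctrl values have the largest counting error of any member. The log2 fold change was 1.93 in Model over Ctrl (SE 0.30; adjusted p = 8.75e-05) and 2.56 in M+NSPCC1 over Ctrl (SE 0.30; adjusted p = 1.26e-05) in edgeR. Both comparisons share the Ctrl libraries.

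**Figure D2:**
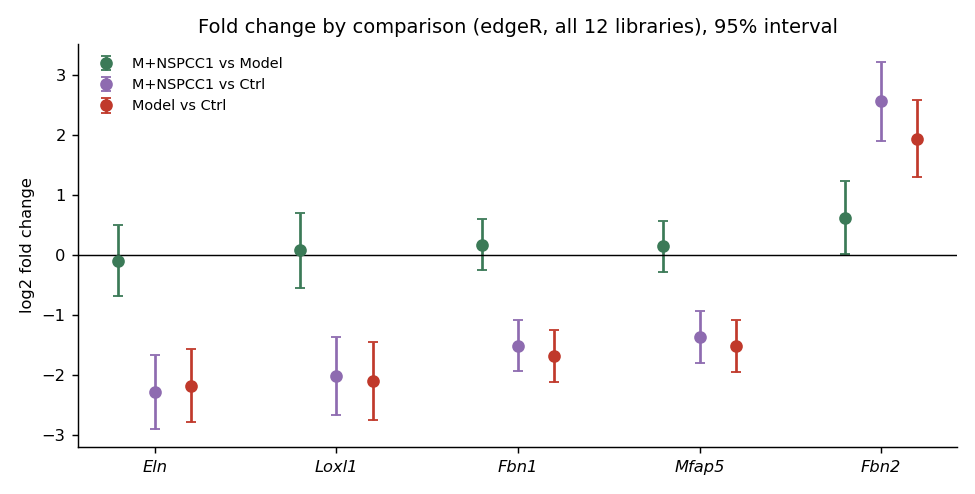
Log2 fold change of each elastic fibre gene (points) with its 95% interval for M+NSPCC1 against Model, M+NSPCC1 against Ctrl and Model against Ctrl. Fbn2 stands at 1.93 and 2.56 against Ctrl, the other 4 genes between -2.29 and -1.37, and the M+NSPCC1 against Model values lie between -0.10 and 0.62.

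The balance of the fibrillins was examined within each library, where a ratio does not depend on how libraries are scaled. Fbn2 made up 6.95%, 4.53%, 4.70% and 6.42% of the summed FPKM of Fbn1 and Fbn2 in M+NSPCC1 libraries and 4.04%, 5.91%, 4.18% and 3.52% in Model libraries. In Ctrl libraries its share was 0.343%, 0.227%, 0.482% and 0.357%. Fbn1 made up the large majority in every library. The log2 ratio of Fbn2 to Fbn1 counts averaged -4.38 ± 0.33 in Model and -8.09 ± 0.46 in Ctrl skin (mean ± SD, n = 4 each), a difference of 3.71. It averaged -3.99 ± 0.33 in M+NSPCC1 skin, 4.09 above Ctrl. Each difference had p = 0.0286 by an exact two-sided permutation test of 4 against 4 libraries, the smallest this design allows. The adjusted p was 0.0571 over the 6 ratio tests, which misses the threshold of 0.05. Fbn2 lay wholly above Ctrl and Fbn1 wholly below it in both groups. These p-values were thus fixed by the genes' separate values and add no support of their own. Such genes were common, with 43.2% of tested genes wholly above Ctrl in Model and 39.8% wholly below. Between M+NSPCC1 and Model the difference was 0.38, with p = 0.143 (exact permutation; adjusted p = 0.171) and overlapping values.

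Elastin was set against the adult microfibril scaffold in the same way. The FPKM ratio of Eln to Fbn1 was 0.976, 0.841, 0.8995 and 1.16 in M+NSPCC1, 1.08, 1.06, 1.37 and 1.04 in Model and 2.09, 1.80, 1.22 and 1.55 in Ctrl libraries. M+NSPCC1 lay wholly below Ctrl, whereas Model 3 lay above the lowest Ctrl library. Between M+NSPCC1 and Ctrl the log2 ratio of counts differed by -0.76 (exact permutation p = 0.0286, adjusted p = 0.0571). The difference was -0.53 between Model and Ctrl (exact permutation p = 0.0571, adjusted p = 0.0857) and -0.23 between M+NSPCC1 and Model (exact permutation p = 0.2, adjusted p = 0.2).

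**Figure D3:**
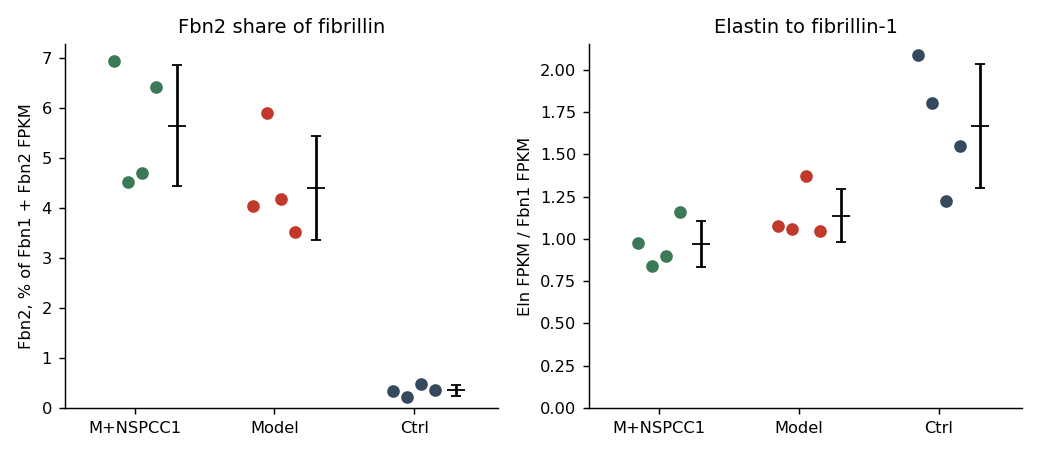
Left, the share of Fbn2 in the summed FPKM of Fbn1 and Fbn2; right, the FPKM ratio of Eln to Fbn1, per library (points) with mean and SD (bar, n = 4) in M+NSPCC1, Model and Ctrl skin. The Fbn2 share lies between 3.52% and 6.95% in the 8 ageing-model libraries and at most at 0.482% in Ctrl.

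The order of levels per length also differed between the groups. In Model skin Mfap5 was highest with 35.7 ± 12.3 FPKM, followed by Eln with 23.7 ± 10.2, Fbn1 with 20.4 ± 6.14, Loxl1 with 15.8 ± 7.57 and Fbn2 with 0.903 ± 0.200 FPKM (SD, n = 4). In Ctrl skin Eln led with 96.3 ± 16.95 FPKM, followed by Mfap5 with 91.1 ± 2.36, Loxl1 with 60.3 ± 6.86, Fbn1 with 58.2 ± 2.82 and Fbn2 with 0.208 ± 0.0704 FPKM (SD, n = 4). In M+NSPCC1 skin the order was Mfap5, Fbn1, Eln, Loxl1 and Fbn2, with 40.8 ± 4.45, 23.7 ± 2.43, 22.9 ± 3.51, 17.2 ± 3.90 and 1.43 ± 0.438 FPKM (SD, n = 4). Neighbours overlapped in their libraries' values for Eln, Fbn1 and Loxl1 in both ageing-model groups, and for Mfap5 and Eln in Model. In Ctrl, Eln overlapped with Mfap5 and Loxl1 with Fbn1. Mfap5 stood clear of the next gene in M+NSPCC1, Mfap5 stood clear of Loxl1 in Ctrl, and Fbn2 lay far below the others in every group. The FPKM ratio of Mfap5 to Eln ran from 1.33 to 2.36 in M+NSPCC1 and from 1.38 to 1.98 in Model, against 0.79 to 1.17 in Ctrl libraries.

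Whether the extract changed these genes in ageing-model skin was asked by setting M+NSPCC1 against Model. Log2 fold changes were -0.10 for Eln (95% interval -0.69 to 0.49), 0.08 for Loxl1 (-0.55 to 0.70), 0.17 for Fbn1 (-0.25 to 0.59) and 0.15 for Mfap5 (-0.28 to 0.57). As folds, the intervals ran from 0.622 to 1.4 for Eln, from 0.683 to 1.63 for Loxl1, from 0.843 to 1.504 for Fbn1 and from 0.825 to 1.49 for Mfap5, so a 2-fold change in either direction lay outside each of them. Fbn2 had 24.1 ± 7.49 CPM in M+NSPCC1 and 15.6 ± 3.90 CPM in Model skin (SD, n = 4 each), a log2 fold change of 0.62 (95% interval 0.02 to 1.23; unadjusted p = 0.0441, adjusted p = 0.74, edgeR). None of the 5 passed, and the adjusted p was at least 0.74 for each. Of all tested genes 0% passed by edgeR in this comparison and 502 (6.57%) had an unadjusted p under 0.05. DESeq2 called 74 (0.95%), with 0.205% higher and 0.745% lower, none of them a member. All 5 members overlapped between M+NSPCC1 and Model, as did all but 1.3% (higher) and 2.89% (lower) of genes.

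Library Model 3 bears on these values. Without it M+NSPCC1 over Model gave log2 fold changes of 0.25 for Eln, 0.49 for Loxl1, 0.38 for Fbn1, 0.44 for Mfap5 and 0.82 for Fbn2, with adjusted p between 0.107 and 0.575 (edgeR). Without Model 2, the lowest library for 4 of the members, they were -0.29 for Eln, -0.10 for Loxl1, 0.00 for Fbn1, 0.04 for Mfap5 and 0.57 for Fbn2. Without M+NSPCC1 1, the library highest in Fbn2, Fbn2 stood at 0.40 (adjusted p = 0.951, edgeR).

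Members varied together inside the Model group. Model 3 was the highest Model library for all 5 members and Model 2 the lowest for Eln, Loxl1, Fbn1 and Mfap5. Summed levels of 4 dermal fibroblast genes (Col3a1, Col5a1, Lum and Dpt, of 10 listed) were 8645 CPM in Model 3 and 3450 CPM in Model 2, the highest and lowest of the group. Model 3 was also the highest of its group in the summed endothelial (524 CPM), smooth muscle and pericyte (1242 CPM), adipocyte (586 CPM), skeletal muscle (12795 CPM) and epidermal (8147 CPM) genes, so its higher level was not particular to fibroblast genes. In contrast, the sum of dermal papilla genes of the hair follicle (5 of 11 listed) was lowest in Model 3. It was 250 CPM there, against 446 to 478 CPM in the other Model libraries. Hair shaft and inner root sheath genes (11 of 12 listed) were also lowest there, with 42317 CPM against 58679 to 64375 CPM. M+NSPCC1 1 had the highest Fbn2 of its group, 34.5 CPM against 18.6 to 24.7 CPM. It was also the highest of its group for Eln, Fbn1 and Loxl1 but the lowest for Mfap5. Its skeletal muscle (13483 CPM), smooth muscle and pericyte (1244 CPM) and epidermal (6773 CPM) sums were the highest of the group. Its fibroblast, endothelial and adipocyte sums were not. The same library had the lowest dermal papilla sum, 382 CPM against 468 to 508 CPM. Its hair shaft sum was also the lowest, 29134 CPM against 47833 to 52052 CPM. The part of these cell types in the members' values was not tested.

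**Figure D4:**
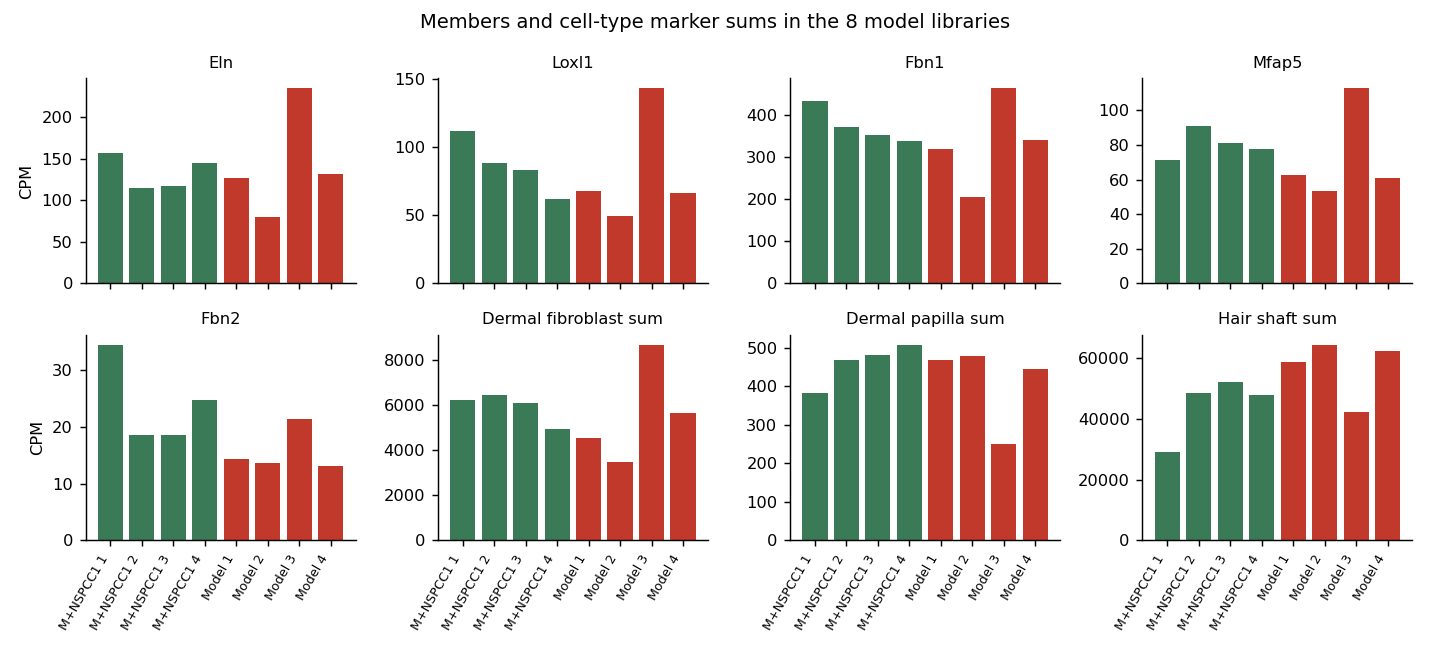
CPM of each elastic fibre gene and summed CPM of dermal fibroblast, dermal papilla and hair shaft marker genes in the 4 M+NSPCC1 and 4 Model libraries, on linear axes from 0. Model 3 is the tallest Model bar for every member and for fibroblast genes and the shortest for dermal papilla and hair shaft genes.

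Marker sums also moved with the groups, where 41.4% of all tested genes passed as lower and 49.1% as higher in Model against Ctrl. All 4 tested dermal fibroblast genes fell in Model skin, with a median log2 fold change of -1.10, and their sum ran from 4908 to 6443 CPM in M+NSPCC1, from 3450 to 8645 CPM in Model and from 10240 to 12725 CPM in Ctrl. By gene, the log2 fold change of Model over Ctrl was -0.86 for Col3a1, which makes up most of that sum, -1.02 for Lum, -1.18 for Col5a1 and -1.81 for Dpt. Dpt thus had a more negative value than Fbn1 (-1.69) and Mfap5 (-1.52), and Eln (-2.19) and Loxl1 (-2.10) had more negative values than all 4 markers. Differences between these values were not tested. Of 7 tested smooth muscle and pericyte genes 6 fell and Smtn rose in Model against Ctrl, and all 8 endothelial genes fell. The smooth muscle sum ran from 865 to 1244 CPM in M+NSPCC1, from 718 to 1242 CPM in Model and from 3884 to 4395 CPM in Ctrl. Des made up most of that sum in Ctrl skin, with 2988 ± 155 CPM, against 350 ± 141 CPM in Model skin (mean ± SD, n = 4 each). Log2 fold changes of Model over Ctrl in this list ran from -3.09 for Des to 0.84 for Smtn, with -0.57 for Acta2. The value for Des lay within the range of the skeletal muscle genes, from -3.47 to -2.74, and no other gene of the list did. The smooth muscle sum thus mostly follows Des, and the part of skeletal muscle in it was not tested. The endothelial sum ran from 267 to 341 CPM in M+NSPCC1, from 182 to 524 CPM in Model and from 967 to 1160 CPM in Ctrl. All 4 tested adipocyte genes fell (median -1.81), and their sum ran from 346 to 433 CPM in M+NSPCC1, from 304 to 586 CPM in Model and from 1335 to 1602 CPM in Ctrl. Gpd1 made up most of the adipocyte sum, with 316.5 ± 114.6 CPM in Model and 1244 ± 136.6 CPM in Ctrl skin (mean ± SD, n = 4 each). All 11 skeletal muscle genes fell (median -3.27), all 5 dermal papilla genes rose (median 3.38) and all 11 hair genes rose (median 9.73). The dermal papilla sum was 460 ± 54.3 CPM in M+NSPCC1, 411 ± 108 CPM in Model and 28.6 ± 6.74 CPM in Ctrl skin (mean ± SD, n = 4 each). Lef1 was its largest part in Model skin, with 195.4 ± 68.75 CPM (mean ± SD, n = 4). Of 3 tested epidermal genes Krt5 rose and Krt10 and Itgb4 fell in Model against Ctrl. Their log2 fold changes were 0.72 (SE 0.20), -1.82 (SE 0.27) and -5.03 (SE 1.48). No marker present in the tables was at 0 in every library. The part of this shift in the fold changes of the members was not tested.

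Of the other genes connected with elastic fibres, most of those tested fell against Ctrl. The 44 listed genes cover microfibril-associated proteins, fibulins, other lysyl oxidases, TGF-beta ligands and their latent binding proteins, matrix proteins found near the fibres and enzymes that degrade elastin, and 23 were in the tables and 22 were tested. In Model against Ctrl 20 fell, 1 rose and 1 did not pass, with a median log2 fold change of -1.36 where that of all tested genes was 0.25. In M+NSPCC1 against Ctrl the counts were also 20, 1 and 1 and the median was -1.32, where that of all tested genes was 0.27. Of all tested genes, 41.4% passed as lower and 49.1% as higher in Model against Ctrl. The corresponding shares in M+NSPCC1 against Ctrl were 43.1% and 50.1%, so passing in 1 direction or the other was the rule for genes of these tables. In M+NSPCC1 against Model none passed, and the median was 0.02, where that of all tested genes was 0.01. The 21 other listed genes were not found by symbol among the rows, so these counts do not cover them.

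All 6 tested microfibril-associated genes fell in Model skin. Adamtsl5, which encodes an ADAMTS-like matrix protein, had 42.9 ± 4.82 CPM in Model and 119 ± 14.3 CPM in Ctrl skin (mean ± SD, n = 4 each; log2 fold change -1.47, adjusted p = 5.03e-07, edgeR). Adamtsl4, whose product binds fibrillin-1, and Emilin2, an elastin interface protein, had 37.0 ± 18.8 and 71.9 ± 32.0 CPM in Model, against 147 ± 12.8 and 244 ± 61.7 CPM in Ctrl skin (mean ± SD, n = 4 each). Adamts10, a protease that binds fibrillins, had a log2 fold change of -1.48. Of the fibulins, which link elastin to microfibrils and to cells, all 3 tested fell. Fbln1 and Fbln2 stood at -1.30 and -1.25 and Efemp2, the fibulin-4 gene, at -0.72 (adjusted p = 0.0292, edgeR).

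Among the other lysyl oxidases both tested genes fell. Loxl3 had 9.27 ± 3.78 CPM in Model and 41.5 ± 6.95 CPM in Ctrl skin, and Loxl2 94.3 ± 36.2 CPM in Model and 208 ± 12.2 CPM in Ctrl skin (mean ± SD, n = 4 each), with log2 fold changes of -2.16 and -1.14. Lox itself was represented by 1 row that was listed at 0 in 10 libraries and had estimated counts of 83.4 in M+NSPCC1 4 and 97.7 in Model 3, so it was not tested. All 3 tested genes for latent TGF-beta binding and TGF-beta ligands fell in Model against Ctrl, with log2 fold changes of -1.58 for the ligand gene Tgfb2, -1.43 for Ltbp1 and -0.74 for Ltbp4, whose product tethers the growth factor to microfibrils and takes part in elastic fibre assembly.

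Matrix proteins found on or near elastic fibres were divided. Fmod, Fn1, Dcn and Hspg2 fell, with log2 fold changes from -1.83 to -0.97 in Model against Ctrl. Vcan, which encodes versican, a large proteoglycan that binds fibrillins, rose against Ctrl. It had 230 ± 27.7 CPM in M+NSPCC1, 176 ± 18.6 CPM in Model and 117 ± 20.7 CPM in Ctrl skin (mean ± SD, n = 4 each). The log2 fold change of Vcan was 0.98 in M+NSPCC1 over Ctrl (adjusted p = 3.67e-05) and 0.59 in Model over Ctrl (adjusted p = 0.00129), and 0.39 in M+NSPCC1 over Model did not pass (adjusted p = 0.614), all in edgeR. Bgn, the biglycan gene, had a log2 fold change of 0.17 in Model over Ctrl and did not pass (adjusted p = 0.255, edgeR). Of 10 listed enzymes that can degrade elastin, Mmp9 and Ctss were tested, and both fell in Model skin, with log2 fold changes of -1.74 and -1.51.

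**Figure D5:**
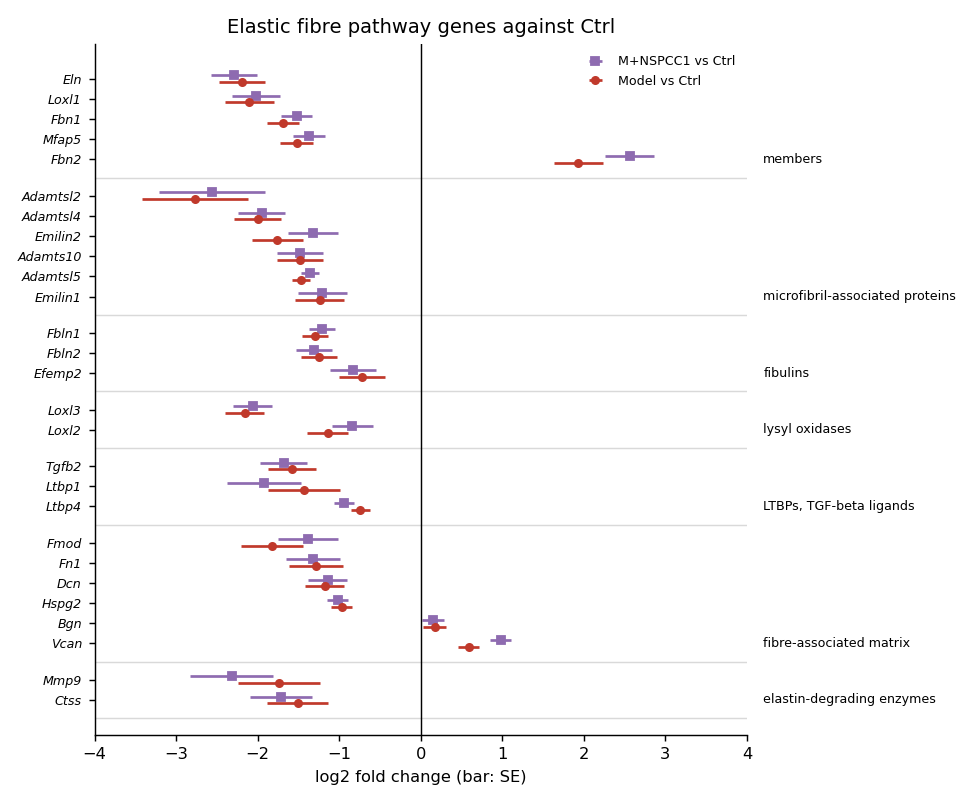
Log2 fold changes against Ctrl (points, bars are SE) for the 5 members and 22 other elastic fibre pathway genes, M+NSPCC1 (squares) above Model (circles) for each gene, grouped by role. Fbn2 and Vcan are the genes that passed as higher; Bgn did not pass, and the other genes lie below 0.

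The deposited rows are transcripts, and Eln and Fbn1 each had 2. The smaller Eln row held 4.03% ± 3.42 of the gene's estimated count in M+NSPCC1, 6.96% ± 3.43 in Model and 7.01% ± 1.14 in Ctrl skin (mean ± SD, n = 4 each). Fitted by themselves, the larger and smaller Eln rows had log2 fold changes of -2.14 and -2.41 in Model over Ctrl. The Fbn1 rows, of nearly equal length, shared the gene unevenly between libraries, and the first held from 22.3% to 36.2% in M+NSPCC1, from 25.9% to 53.5% in Model and from 25.9% to 48.1% in Ctrl. Both Fbn1 rows fell in Model over Ctrl, with log2 fold changes of -1.58 and -1.70. The split of reads between such similar transcripts is an estimate, and the files do not name them.

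Genes with the most similar profile were sought among 6275 tested genes averaging 10 CPM or more, by the root mean square difference of log2 CPM over the 12 libraries after centring each gene on its own mean. Nearest to Fbn1 were Thbs3 (0.0955), Prrx1 (0.108) and Stk10 (0.131). Nearest to Mfap5 were Camk1 (0.0855), Zcchc24 (0.0969) and Pea15a (0.105). Loxl1 was nearest to Gypc (0.172), Csf1 (0.175) and C1rl (0.179), and Eln to Fxyd6 (0.196), Ppp2r3a (0.203) and Clca3a1 (0.214). Fbn2 had no gene as near, and its closest were Aox4 (0.295), F5 (0.299) and E2f8 (0.347). Its counts were the lowest of the members, 23 to 55.5 in Ctrl libraries, and counting error adds to such a distance. Among the members themselves Fbn1 and Mfap5 were closest (0.202), and Fbn2 was at least 1.75 from each of the other 4.

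Library totals of estimated counts over the tables lay between 9717338 and 10952623. Krt5, Krt10 and dermal fibroblast genes had counts in all groups, though only 3 of 10 listed epidermal markers were in the tables. Krt5, of basal epidermis, had 3525 ± 773 CPM in M+NSPCC1, 4351 ± 1153 CPM in Model and 2641 ± 275 CPM in Ctrl skin (mean ± SD, n = 4 each). Krt10, of suprabasal epidermis, had 1659 ± 356 CPM in M+NSPCC1, 1417 ± 633 CPM in Model and 4996 ± 883 CPM in Ctrl skin (mean ± SD, n = 4 each). Itgb4, also of basal cells, was low in what was deposited. It had 1.48 ± 2.61 CPM in M+NSPCC1, 0.794 ± 1.59 CPM in Model and 25.9 ± 13.3 CPM in Ctrl skin (mean ± SD, n = 4 each). The SD exceeded the mean in M+NSPCC1 and Model, and transcripts of the gene that were left out would not be counted. Over all tested genes, the log2 fold change of Model over Ctrl had a median of 0.255 with the scaling used (TMM), 0.0827 with DESeq2's size factors and 0.432 with whole-library depth. Under these scalings in turn, the log2 fold change of Model over Ctrl was -2.19, -2.35 and -2.02 for Eln, -2.10, -2.26 and -1.93 for Loxl1 and -1.69, -1.85 and -1.51 for Fbn1. It was -1.52, -1.69 and -1.35 for Mfap5 and 1.93, 1.77 and 2.10 for Fbn2. Relative to the median with TMM, the values were -2.44 for Eln, -2.35 for Loxl1, -1.94 for Fbn1, -1.78 for Mfap5 and 1.68 for Fbn2.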

How the data were processed

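Total RNA was extracted with TRIzol and made into messenger RNA libraries, per the labels' protocols. The authors deposited estimated counts and FPKM values per transcript and library. Listed without roles in the submitters' processing notes are mm10, RSEM 1.3.1, HISAT2 2.2.1 and DESeq2 1.34.0. No source used here gives the rule that chose the 10720 rows, which are part of the transcriptome. Rows were summed by gene ID and rounded. The sum was not whole in some library for 69.5% of genes (tolerance 0.011).

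edgeR 4.0.16 in R 4.3.3 fitted all 12 libraries with a quasi-likelihood model (TMM factors, its default expression filter, a coefficient per group). P-values were adjusted by Benjamini-Hochberg over all tested genes, threshold 0.05. CPM are counts scaled to the table's effective total. Ratios of genes were compared by exact two-sided permutation. Intervals cover 95%. Coordinates are RefSeq's GRCm38.p6, the assembly of mm10. Only the edgeR fit was tested on simulated counts. Few genes changed in that simulation, whereas most genes passed against Ctrl in these data.

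The members, gene lists and tests were chosen with earlier results of these data known. Named were the 5 members, the 4 list genes with the smallest p per list or against their list's direction, and the 3 genes most like each member. Fn1 was named beyond these rules. Lox, Smtn, Des, Acta2, Gpd1, Lef1 and the libraries singled out were named after their values were seen. Alternatives were DESeq2 1.42.0 and its size factors, other filters, 8 libraries only, the replicate number as a block, single transcripts, limma 3.58.1 on log2(FPKM + 1) or log2(FPKM + 0.1) with or without a minimum mean of 0.5, and each library left out. Whole-library depth was added after seeing the data.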

Additional observations from a re-analysis of the deposited data

Results flagged for a closer look

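Over M+NSPCC1, Model and Ctrl, 21 groups of values were examined for 1 library apart from the other 3, by its gap relative to the whole range. In 3 of the 21 this was so, where chance gives about 1 in 20, and all 3 were of Model. For Fbn2 the gap was 0.86 of the range, with 21.4 CPM in Model 3 and 13.1 to 14.3 CPM in the other Model libraries. For Mfap5 it was 0.849, with 113 CPM in Model 3 and 53.5 to 62.4 CPM in the others. For the log2 ratio of Eln to Fbn1 it was 0.889, with -0.98 in Model 3 and -1.37 to -1.33 in the others. All 3 rest on the same library, so they are not independent of each other.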

How the results depend on the processing

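All 5 members passed against Ctrl in both comparisons, with the same direction, under each of 11 other settings and with each of the 12 libraries left out in turn, and none passed in M+NSPCC1 against Model under any of them. With each library left out, the log2 fold change of Model over Ctrl ran from -2.53 to -1.95 for Eln, from -2.51 to -1.88 for Loxl1, from -1.89 to -1.48 for Fbn1, from -1.81 to -1.37 for Mfap5 and from 1.75 to 2.17 for Fbn2. On log2(FPKM + 1), which understates low genes, Fbn2 stood at 0.65. In M+NSPCC1 over Model the sign of Eln turned to 0.03 by limma on log2(FPKM + 1), with and without the filter, and on log2(FPKM + 0.1), and ran from -0.29 to 0.25 with 1 library left out, that of Loxl1 from -0.10 to 0.49. In that comparison the count over all genes was 0 by edgeR, 74 by DESeq2, 2 with only the 8 libraries compared, 2 by limma without a filter, and up to 4 with a library left out.

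With a library left out, ratio differences ran from 3.51 to 3.88 (Fbn2 to Fbn1, Model against Ctrl), from 3.89 to 4.26 (the same ratio, M+NSPCC1 against Ctrl) and from -0.90 to -0.65 (Eln to Fbn1, M+NSPCC1 against Ctrl). With 3 against 4 libraries the exact permutation p cannot go below 0.0571, which each of these reached. The labels do not say whether equal replicate numbers pair the samples. Correlations of same-numbered deviations ran from -0.162 to 0.119, which cannot settle the question. Paired by number as a replicate block, the differences 3.71, 4.09 and -0.76 had p = 0.125 by an exact sign-flip permutation, the smallest that 4 pairs allow. In edgeR the block changed no call on a member. Depth limits Fbn2 in Ctrl most, at 23 to 55.5 estimated counts a library.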
